A study of Homo sapiens with 8 samples.

Results

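The miR-193 and miR-365 clusters were followed through 5 mature miRNAs, hsa-miR-193a-3p, hsa-miR-193a-5p, hsa-miR-193b-3p, hsa-miR-193b-5p and hsa-miR-365a-3p, taken by name from the 2006 human miRNAs on the array. The array measured them in total RNA of BT474 and SKBR3, breast cancer cell lines in which the ERBB2 gene, which encodes the receptor HER2, is amplified. Each line was cultured for 144 h either with 6 µg/mL trastuzumab, an antibody against HER2, or with PBS as the control, and the study describes 2 biological replicates per group. The groups used here are BT474 with PBS (2 arrays), BT474 with trastuzumab (2 arrays), SKBR3 with PBS (1 array) and SKBR3 with trastuzumab (2 arrays). The file labelled SKBR3 PBS replicate 1 held the same values as that of BT474 PBS replicate 1 at every spot, so that 7 distinct arrays remained and SKBR3 PBS had no replicate.

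Both clusters pair a miR-193 hairpin with a miR-365 hairpin, and each hairpin can be processed into a 5p and a 3p mature miRNA. In cultured cells miR-193a-3p and miR-193b-3p are known to repress the mRNAs of cyclin D1, which drives the entry into S phase, and of the protease urokinase, and miR-193b also that of the estrogen receptor alpha. miR-365 has likewise been described as a repressor of cyclin D1, and the miR-193b and miR-365 cluster is also known for its induction during brown fat differentiation.

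The mature sequences of the 5 miRNAs are shown because the arms differ in which targets they can pair with and because close relatives could share signal on an array. They are written 5′ to 3′ as given by RefSeq for GRCh38.p14, with the seed, bases 2 to 8, in capitals.

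hsa-miR-193a-3p: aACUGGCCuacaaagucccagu
hsa-miR-193b-3p: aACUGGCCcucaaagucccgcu
hsa-miR-365a-3p: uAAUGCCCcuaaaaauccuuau
hsa-miR-193a-5p: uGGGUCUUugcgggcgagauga
hsa-miR-193b-5p: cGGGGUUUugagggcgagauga

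hsa-miR-193a-3p and hsa-miR-193b-3p share the seed ACUGGCC, which no other array miRNA matched to RefSeq carried (1687 of the 2006 names were matched). They are identical at 18 of 22 positions and differ by U9C, A10U, A20G and G21C, with the base of hsa-miR-193a-3p first and positions counted from 1 at the 5′ end. The 5p arms are also identical at 18 of 22 positions, but U5G and C6U lie in the seed, and the remaining differences between hsa-miR-193a-5p and hsa-miR-193b-5p are U1C and C11A. hsa-miR-365a-3p is identical to hsa-miR-365b-3p at 22 of 22 positions, and the array carries this sequence under the first name alone, so its signal cannot be divided between the 2 hairpins that encode it. Whether the array cross-hybridizes between hsa-miR-193a-3p and hsa-miR-193b-3p was not tested.

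MIR193B (chr16:14303967-14304049) and MIR365A (chr16:14309285-14309371) lie on the plus strand with 5235 bases between them, both within the long noncoding RNA gene MIR193BHG. On chromosome 17, MIR193A (chr17:31559996-31560083) and MIR365B (chr17:31575411-31575521) lie 15327 bases apart, and MIR4725 (chr17:31575269-31575358) ends 52 bases before MIR365B. The annotation places MIR4725 and MIR365B within MIR365BHG and no host gene over MIR193A. The array carries 4 further miRNAs of these hairpins, and hsa-miR-365a-5p, hsa-miR-365b-5p and hsa-miR-4725-3p were detected on 0 of the 7 arrays.

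The arrays detected 247 and 254 miRNAs in BT474 with PBS, 248 and 256 in BT474 with trastuzumab, 203 in SKBR3 with PBS, and 218 and 201 in SKBR3 with trastuzumab. Over the 7 arrays 307 miRNAs were detected at least once and 173 on every array, among them 4 and 3 of the 5 cluster miRNAs. Few arrays limit the precision, and the median residual SD of the 173 miRNAs was 0.10 on the log2 scale. All arrays lay on 1 slide, with the PBS arrays in row 2 and the trastuzumab arrays in row 1, and with BT474 in columns 1 and 2 and SKBR3 in columns 3 and 4, so position on the slide cannot be told apart from treatment or from cell line.

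hsa-miR-193a-3p, the 3p arm of the chromosome 17 hairpin, had a summed signal (intensity, not normalized between arrays) of 2981 and 3685 in BT474 with PBS, 3943 and 4859 in BT474 with trastuzumab, 603 in SKBR3 with PBS, and 898 and 535 in SKBR3 with trastuzumab. All 4 BT474 arrays were above all 3 SKBR3 arrays, and within SKBR3 the PBS array lay between the trastuzumab arrays. hsa-miR-193b-3p, the 3p arm of the chromosome 16 hairpin, had a summed signal of 722 and 898 in BT474 with PBS, 962 and 1106 in BT474 with trastuzumab, 142 in SKBR3 with PBS, and 205 and 201 in SKBR3 with trastuzumab. Here too the lines did not overlap, and in each line the trastuzumab arrays were brighter than the PBS arrays. On this scale the median log2 change of the 173 miRNAs detected on every array was also a rise, 0.22 in BT474 and 0.36 in SKBR3. hsa-miR-365a-3p had a summed signal of 1799 and 2225 in BT474 with PBS, 2359 and 2779 in BT474 with trastuzumab, 259 in SKBR3 with PBS, and 354 and 310 in SKBR3 with trastuzumab. Its BT474 arrays were all above its SKBR3 arrays, and the trastuzumab arrays of each line were above the PBS arrays. Its log2 change on this scale was 0.36 in BT474 and 0.36 in SKBR3. How many of all miRNAs separated by treatment in this way was not counted.

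hsa-miR-193a-5p, the other arm of the MIR193A hairpin, had a summed signal of 224 and 260 in BT474 with PBS and 270 and 320 in BT474 with trastuzumab, and it was not detected on any SKBR3 array. Its brighter probe had 15 of 15 spots above background on each BT474 array, against 0 to 2 spots on the SKBR3 arrays, where that probe read 31.2 to 36.1. hsa-miR-193b-5p had no detected signal on the 7 arrays, and none of its spots was well above background.

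**Figure D1:**
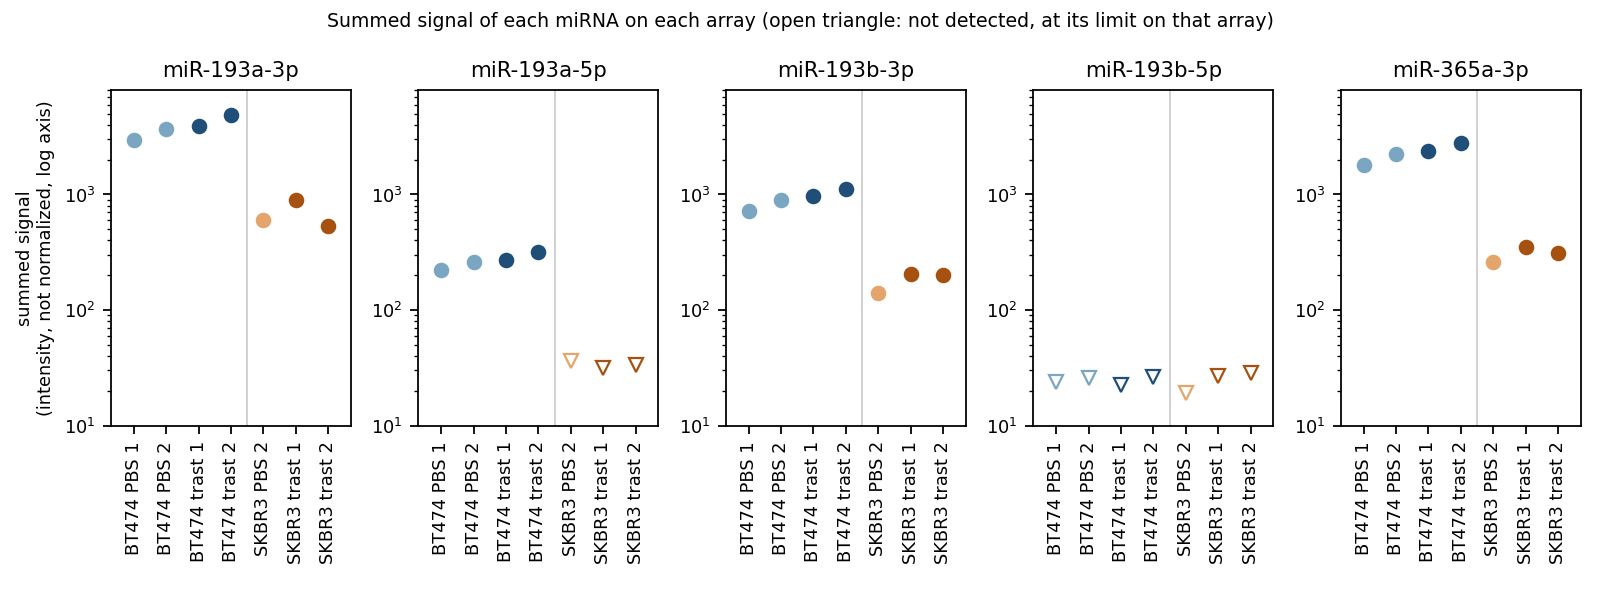
Summed signal of the 5 cluster miRNAs (intensity, not normalized, log axis) on each of the 7 arrays, with BT474 in blue, SKBR3 in orange and the trastuzumab arrays in the darker shade. Filled points are detected values, and open triangles are arrays where the miRNA was not detected, drawn at the lowest signal detected on that array or at the reading of the miRNA's brightest probe, whichever was larger. The 4 miRNAs detected in BT474 were all lower or not detected in SKBR3, and hsa-miR-193b-5p was not detected on any array.

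The comparison of the lines asks how the clusters differ between the 2 HER2-amplified lines as cultured, whatever the treatment. The study describes BT474 as estrogen receptor positive and SKBR3 as negative. It grew them in different media, with bovine insulin listed for BT474 only, so medium cannot be told apart from cell line. On the log2 scale after quantile normalization, hsa-miR-193a-3p was 11.49 and 11.40 in BT474 with PBS, 11.77 and 11.60 with trastuzumab, 10.30 in SKBR3 with PBS, and 10.34 and 9.60 with trastuzumab. hsa-miR-193b-3p was 9.39 and 9.50, then 9.56 and 9.50 in the BT474 groups, and 8.19, then 8.09 and 8.34 in the SKBR3 groups. hsa-miR-365a-3p was 10.78 and 10.72, then 10.78 and 10.78 in the BT474 groups, and 9.04, then 8.86 and 8.93 in the SKBR3 groups. For each of the 3 miRNAs every BT474 array stayed above every SKBR3 array, which 43 of the 173 miRNAs detected on every array showed on this scale (24.9%). The same held for the 3 miRNAs with each array scaled to its 75th percentile (51 of 173 miRNAs, 29.5%) and with no normalization (92 of 173, 53.2%).

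hsa-miR-365a-3p was 3.47-fold higher in BT474 than in SKBR3 (log2 difference 1.80, SE 0.039, 95% interval 1.68 to 1.91, adjusted p = 2.53e-05 with limma). hsa-miR-193a-3p was 2.70-fold higher (log2 difference 1.43, SE 0.22, 95% interval 0.80 to 2.06, adjusted p = 0.00691). hsa-miR-193b-3p was 2.44-fold higher (log2 difference 1.28, SE 0.084, 95% interval 1.05 to 1.52, adjusted p = 0.000572). hsa-miR-193a-5p was at least 2.98-fold higher, its BT474 mean of 7.74 being set against a SKBR3 limit of 6.16 on the same scale. The limit rests on what its brighter probe read on the SKBR3 arrays (31.2 to 36.1 before normalization). Those readings were above the lowest signal detected there. hsa-miR-193a-5p passed the filter on low values through BT474 alone and therefore had to differ. The 3 other cluster miRNAs tested passed an adjusted p under 0.05 and were higher in BT474. With hsa-miR-193a-5p counted, 4 of 4 passed, beside 209 of all 305 miRNAs tested (68.5%). All 4 were higher in BT474, beside 102 of 305 called higher (33.4%). Among the 173 miRNAs detected on every array, where 3 of 3 cluster miRNAs were called, 144 were called (83.2%) and 52 were called higher in BT474 (30.1%). At the study's own thresholds, a fold change above 2 with an unadjusted p under 0.05, the counts were 4 of 4 and 141 of 305 (46.2%). Among the miRNAs detected on every array, which leaves out hsa-miR-193a-5p, they were 3 of 3 and 66 of 173.

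How far the lines lay apart depended on the scale, while the direction for these miRNAs did not. The median difference of the 173 miRNAs was -0.42 after quantile normalization, -0.20 with each array scaled to its 75th percentile, and 0.71 with no normalization. The share of calls that were higher in BT474 moved with it, from 102 of 209 to 124 of 217 and 165 of 186. hsa-miR-365a-3p lay 2.21, hsa-miR-193a-3p 1.85 and hsa-miR-193b-3p 1.70 log2 units above the median after quantile normalization, and 2.24, 1.85 and 1.72 above it on either of the other scales. Counted from the most BT474-high of the 173 miRNAs, they ranked 6, 10 and 15 after quantile normalization and 6, 12 and 14 on both other scales. Those other scales differ only by a factor for each array, which fixes equal distances from the median and equal ranks on both. The bound for hsa-miR-193a-5p was at least 4.16-fold with 75th percentile scaling and at least 7.80-fold with no normalization.

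**Figure D2:**
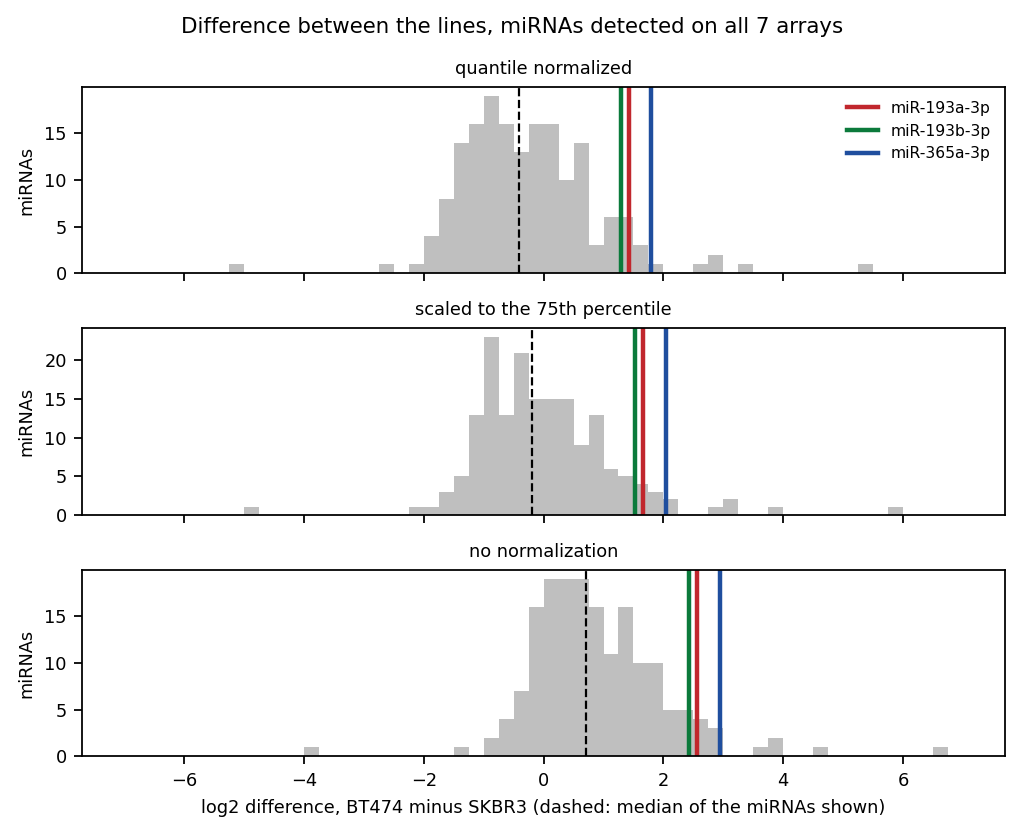
Histograms of the log2 difference between BT474 and SKBR3 for the 173 miRNAs detected on all 7 arrays, on 3 scales from top to bottom, with the median dashed and 3 cluster miRNAs as coloured lines. The median moved from -0.42 to -0.20 and 0.71, while hsa-miR-193b-3p, hsa-miR-193a-3p and hsa-miR-365a-3p lay at the upper side on each scale, at 1.28, 1.43 and 1.80 on the first.

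The lines were also compared under each treatment alone. Both comparisons came from the fit of all 7 arrays. The spread for the single SKBR3 PBS array was thus taken from the other groups. Among PBS arrays alone (2 against 1) hsa-miR-193a-3p was higher in BT474 by 1.15 on the log2 scale (adjusted p = 0.0472), hsa-miR-193b-3p by 1.25 (adjusted p = 0.00265) and hsa-miR-365a-3p by 1.71 (adjusted p = 0.000129), beside 181 of 277 miRNAs called (65.3%) and 91 called higher (32.9%). Among trastuzumab arrays alone (2 against 2) the differences were 1.71 (adjusted p = 0.00862), 1.31 (adjusted p = 0.00117) and 1.88 (adjusted p = 5.55e-05), beside 195 of 282 called (69.1%) and 94 called higher (33.3%). The PBS call of hsa-miR-193a-3p was lost with a floor of 1 (1.15, adjusted p = 0.0538), with the mean over spots of the processed signal (1.16, adjusted p = 0.0753) with any BT474 array left out (1.14 to 1.19, adjusted p from 0.102 to 0.140) and with the 8 labelled arrays (0.53, adjusted p = 0.486), where the other cluster miRNAs also lost theirs (adjusted p = 0.473), and its adjusted p ranged from 0.00172 to 0.486 over the alternatives. Its trastuzumab call was lost without BT474 trastuzumab replicate 1 (1.64, adjusted p = 0.0532) and with the 8 labelled arrays (1.72, adjusted p = 0.0625, as for the other cluster miRNAs), within a range of adjusted p from 4.19e-06 to 0.0625. The bound for hsa-miR-193a-5p was at least 2.42-fold among PBS arrays and at least 3.67-fold among trastuzumab arrays.

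The separate probes of each miRNA showed the same direction. Without normalization, the probes of hsa-miR-193a-3p were 5.79-fold and 5.76-fold higher in BT474, and those of hsa-miR-365a-3p 7.27-fold and 7.55-fold higher. The value of 5.79-fold is from the dimmer probe, which had 4 to 15 of its 15 spots well above background on the SKBR3 arrays. For hsa-miR-193b-3p the probe that read well above background was 5.07-fold higher, and the other had 0 to 2 of its 15 spots above background on any array.

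Ratios within an array need no normalization, and they ask whether the miRNAs of a pair differed between the lines by the same factor. Those with hsa-miR-365a-3p do not compare the clusters, since its signal cannot be divided between hairpins on chromosomes 16 and 17. On chromosome 16 the hairpins MIR365A and MIR193B neighbour each other. The ratio of hsa-miR-365a-3p to hsa-miR-193b-3p was 1.47-fold higher in BT474 (0.55 on the log2 scale), and the arrays of the lines did not overlap. The exact two-sided permutation p over 4 and 3 arrays was 0.0571, the smallest this design allows, and 0.171 after adjustment over the 3 pairs compared. How many other pairs of miRNAs separated the lines in this way was not counted. The ratio of hsa-miR-193a-3p to hsa-miR-193b-3p, which share the seed, differed by 0.18 with overlapping arrays (exact permutation p = 0.743), and that of hsa-miR-365a-3p to hsa-miR-193a-3p by 0.37, also with overlap (exact permutation p = 0.114).

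The comparison within BT474 asks what 144 h of trastuzumab did to the clusters in that line. After quantile normalization the arrays of hsa-miR-193b-3p and hsa-miR-365a-3p met between PBS and trastuzumab. Both trastuzumab arrays of hsa-miR-193a-3p were above both PBS arrays, and how many other miRNAs showed this was not counted. hsa-miR-193a-5p was 7.70 and 7.74 with PBS and 7.77 and 7.74 with trastuzumab, so that its groups met at 1 value. The log2 change was 0.24 for hsa-miR-193a-3p (95% interval -0.55 to 1.04, adjusted p = 0.576), 0.03 for hsa-miR-193a-5p (-0.08 to 0.15, adjusted p = 0.589), 0.08 for hsa-miR-193b-3p (-0.22 to 0.39, adjusted p = 0.602) and 0.03 for hsa-miR-365a-3p (-0.11 to 0.17, adjusted p = 0.717).

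Of these 4 miRNAs 0 were called in BT474 with limma, beside 79 of 285 miRNAs (27.7%). At an unadjusted p under 0.05 there were 0 of 4 beside 112 of 285, and with the methods' t-test 0 of 4 beside 37 of 285 called. The intervals for hsa-miR-193a-5p, hsa-miR-193b-3p and hsa-miR-365a-3p leave out a change of 2-fold either way, and that for hsa-miR-193a-3p reaches up to 2.05-fold higher. The interval for hsa-miR-193a-5p is narrowed by the SKBR3 trastuzumab arrays, which lie at the floor and add an SD of 0 to its spread. For hsa-miR-365a-3p the BT474 trastuzumab arrays also had an SD of 0 after quantile normalization. The sign of these changes depended on the scale. The median of the 173 miRNAs was 0.00 after quantile normalization, -0.23 with 75th percentile scaling and 0.22 with no normalization, and the changes of hsa-miR-193a-3p, hsa-miR-193a-5p, hsa-miR-193b-3p and hsa-miR-365a-3p turned to -0.05, -0.17, -0.10 and -0.10 with 75th percentile scaling. With no normalization they were 0.40, 0.28, 0.36 and 0.36, and relative to the median 0.18, 0.06, 0.13 and 0.13 on both of these scales.

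The comparison within SKBR3 set 2 trastuzumab arrays against 1 PBS array, whose spread was taken from the other groups. The log2 change was -0.32 for hsa-miR-193a-3p (95% interval -1.29 to 0.65, adjusted p = 0.569), 0.03 for hsa-miR-193b-3p (-0.34 to 0.39, adjusted p = 0.958) and -0.14 for hsa-miR-365a-3p (-0.31 to 0.04, adjusted p = 0.231). The trastuzumab arrays of hsa-miR-193a-3p had an SD of 0.52 on the log2 scale, larger than its change, and the PBS array lay between them. Of the 3 miRNAs 0 were called with limma, beside 43 of 227 miRNAs (18.9%). At an unadjusted p under 0.05 there were 0 of 3 beside 69 of 227, and with the methods' t-test 0 of 3 beside 12 of 227 called. The median of the 173 miRNAs was -0.10 after quantile normalization, 0.18 with 75th percentile scaling and 0.36 with no normalization, and on the last 2 scales the signs for hsa-miR-193a-3p (0.02 and 0.20) and hsa-miR-365a-3p (0.18 and 0.36) turned.

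The difference in response between the lines, the BT474 change minus the SKBR3 change, asks whether trastuzumab moved the clusters unequally. It was 0.57 for hsa-miR-193a-3p (95% interval -0.69 to 1.82, adjusted p = 0.486), 0.06 for hsa-miR-193b-3p (-0.42 to 0.54, adjusted p = 0.835) and 0.16 for hsa-miR-365a-3p (-0.06 to 0.39, adjusted p = 0.269). Of these 3 miRNAs 0 were called with limma, beside 49 of 305 miRNAs (16.1%) and 26 of the 207 tested in both lines (12.6%), and 0 had an unadjusted p under 0.05, beside 92 of 305. With 75th percentile scaling all 3 differences turned, to -0.07, -0.43 and -0.27, against a median of -0.41. hsa-miR-193a-5p has no SKBR3 change to compare.

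hsa-miR-4725-5p, from the hairpin next to MIR365B, had a summed signal of 281 and 223 in BT474 with PBS, 303 and 432 in BT474 with trastuzumab, 60.7 in SKBR3 with PBS, and 324 and 261 in SKBR3 with trastuzumab. The single SKBR3 PBS array stood below all others, and its value is that of 1 probe, since the other had 0 of 15 spots above background there, while the other arrays sum 2 probes. Its log2 difference between the lines was -0.18 (adjusted p = 0.490), which turned to 0.27 with 75th percentile scaling (adjusted p = 0.273) and to 1.18 with no normalization (adjusted p = 0.00876), where it was called higher in BT474 as the cluster miRNAs were. In SKBR3 its log2 change with trastuzumab was 1.47 (95% interval 0.48 to 2.45, adjusted p = 0.0693), which missed the adjusted threshold but passed the study's thresholds, as 28 of 227 miRNAs did (12.3%). It passed the adjusted threshold with 75th percentile scaling (2.08, adjusted p = 0.0186) and with no normalization (2.26, 4.79-fold, adjusted p = 0.0243). It also passed with limma's normexp background, where the change was smaller (0.73). Its adjusted p ranged from 0.00950, with normexp, to 0.675 over the alternatives. Without BT474 PBS replicate 1 or replicate 2 it also passed, at 1.48 (adjusted p = 0.0132) and 1.49 (adjusted p = 0.0140). With the brightest probe of each miRNA alone, an alternative chosen after seeing the data, the SKBR3 change was smaller, at 0.94 (adjusted p = 0.0788), 1.21 with 75th percentile scaling (adjusted p = 0.0688) and 1.46 with no normalization (2.76-fold, adjusted p = 0.0464). The BT474 change was 0.32 (adjusted p = 0.471), and the difference in response of -1.14 missed the threshold (adjusted p = 0.193) but passed it with 75th percentile scaling (adjusted p = 0.0450), though not with the brightest probe alone on that scale (-1.08, adjusted p = 0.127). Without BT474 PBS replicate 1 the BT474 change was 0.71 (adjusted p = 0.0227) and the difference between the lines -0.37 (adjusted p = 0.0134), and without replicate 1 or replicate 2 of that group the difference in response was -0.77 (adjusted p = 0.0391) or -1.55 (adjusted p = 0.00887). Over the alternatives the adjusted p for hsa-miR-4725-5p ranged from 0.0227 to 0.807 in BT474, from 0.00876 to 0.653 between the lines and from 0.00887 to 0.621 for the difference in response.

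**Figure D3:**
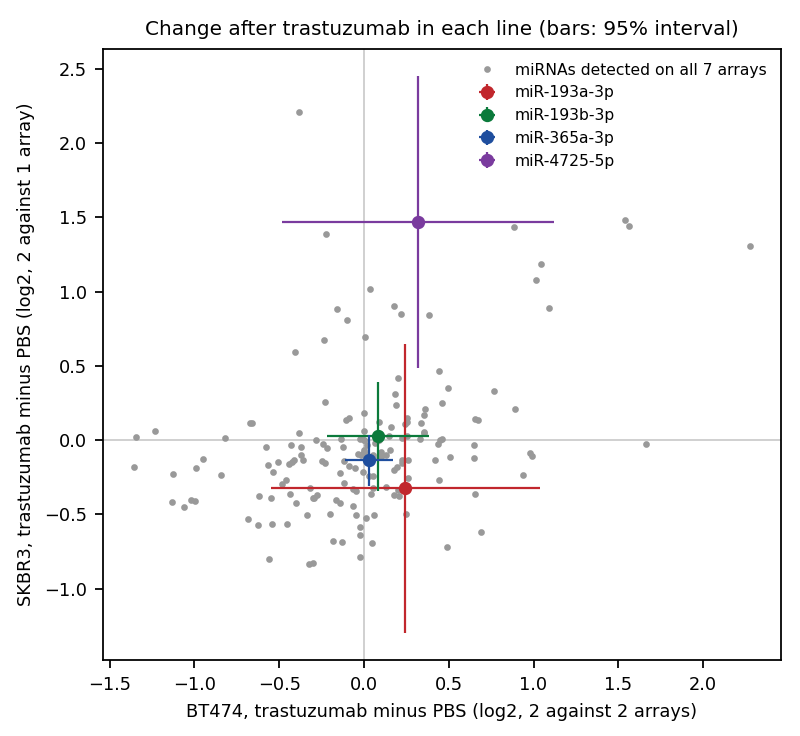
Log2 change with trastuzumab in BT474 (horizontal axis, 2 against 2 arrays) and in SKBR3 (vertical axis, 2 against 1 array) after quantile normalization, for the 173 miRNAs detected on all 7 arrays, with 95% intervals for 4 named miRNAs. hsa-miR-193a-3p, hsa-miR-193b-3p and hsa-miR-365a-3p have intervals that cross 0 on both axes, while hsa-miR-4725-5p lies at 1.47 in SKBR3.

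The miRNAs whose profile over the 7 arrays was most like that of a cluster miRNA were found among the 172 others detected on every array, by the root mean square difference of the log2 values after the mean over the arrays was taken off. For hsa-miR-193b-3p they were hsa-miR-96-5p (0.0690), hsa-miR-103a-3p (0.109) and hsa-miR-107 (0.139), where the median over all others was 0.914. For hsa-miR-365a-3p they were hsa-miR-98-5p (0.0970), hsa-miR-183-5p (0.175) and hsa-miR-128 (0.207), against a median of 1.16. For hsa-miR-193a-3p they were hsa-miR-497-5p (0.202), hsa-miR-98-5p (0.259) and hsa-miR-96-5p (0.267), against a median of 1.04. The cluster miRNAs were not the nearest to each other. hsa-miR-365a-3p ranked 16 for hsa-miR-193b-3p and 7 the other way round, MIR365A being the neighbour of MIR193B on chromosome 16. hsa-miR-193b-3p ranked 11 for hsa-miR-193a-3p, with which it shares the seed, and 19 the other way round. hsa-miR-365a-3p ranked 7 for hsa-miR-193a-3p and 8 the other way round. The summed signals of hsa-miR-98-5p, hsa-miR-128 and hsa-miR-497-5p hold 2 probes on the BT474 arrays and 1 on the SKBR3 arrays, and with the brightest probe alone their differences between the lines went from 1.70, 1.60 and 1.37 to 1.59, 1.48 and 1.30.

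**Figure D4:**
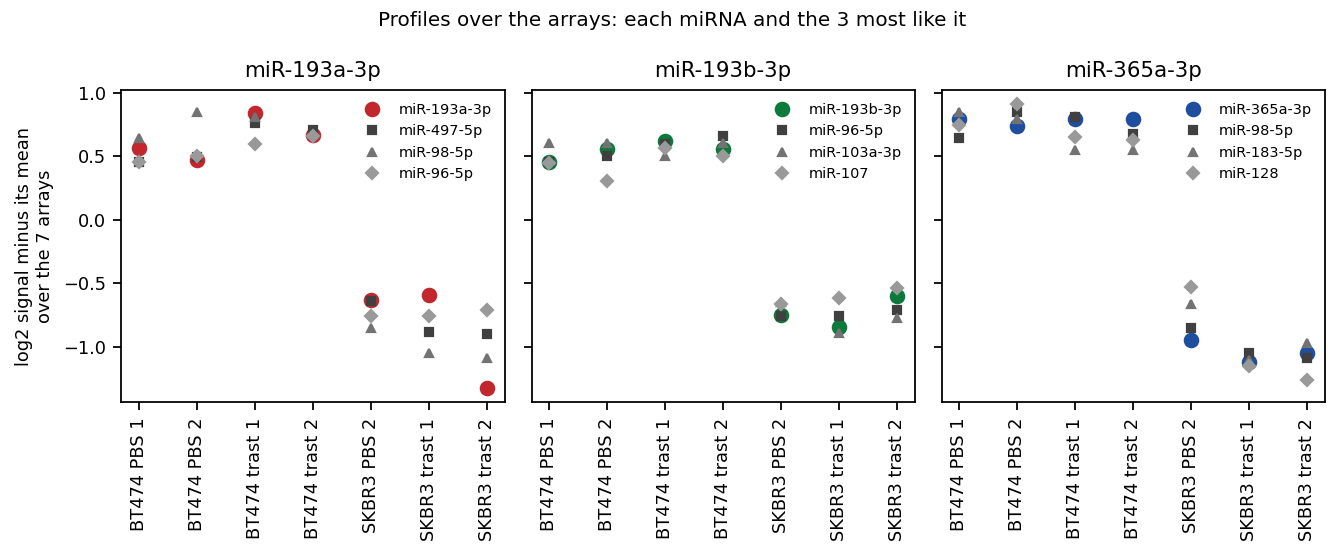
Log2 signal after quantile normalization minus its mean over the 7 arrays (vertical axis) for hsa-miR-193a-3p, hsa-miR-193b-3p and hsa-miR-365a-3p in colour, each with the 3 miRNAs most like it in grey. Every miRNA shown is above its mean on the 4 BT474 arrays and below it on the 3 SKBR3 arrays, and the points lie closest together for hsa-miR-193b-3p and hsa-miR-96-5p (0.0690).

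Other miRNAs known to target the cyclin D1 mRNA, as miR-193a-3p, miR-193b-3p and miR-365 are, were taken from a list of 15. Of these, 13 were tested and 12 detected on every array. Between the lines 6 were higher in BT474 and 3 lower, 69.2% of the list beside 68.5% of all miRNAs tested, with a median of 0.12 beside 0.00. hsa-miR-497-5p (1.37, adjusted p = 3.92e-05) and hsa-miR-195-5p (1.02, adjusted p = 0.000818) were higher, as the cluster miRNAs were. The summed signal of hsa-miR-195-5p held 1 probe on the SKBR3 PBS array and 2 on the others. Its difference ranged from 0.72 to 2.18 over the alternatives. Lower were hsa-miR-424-5p (-1.08, adjusted p = 0.000669) and hsa-miR-34a-5p (-0.38, adjusted p = 0.00390), which turned to 0.02 and 0.64 with no normalization.

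With trastuzumab 2 miRNAs of this list rose and 2 fell in BT474, 30.8% of the list beside 27.7% of all miRNAs tested (median 0.00 in both). hsa-miR-424-5p rose by 0.49 (adjusted p = 0.0331) and hsa-miR-497-5p by 0.26 (adjusted p = 0.0301), while hsa-miR-19a-3p (-0.37, adjusted p = 0.0326) and hsa-miR-15b-5p (-0.37, adjusted p = 0.0118) fell. All 4 calls were lost with no normalization (0.76, 0.56, 0.06 and -0.09 in that order), with only the BT474 arrays (adjusted p from 0.0622 to 0.0945), with the methods' t-test (adjusted p from 0.0814 to 0.120), with the mean over spots of the processed signal (adjusted p from 0.0919 to 0.239), with the deposited log2 values (adjusted p from 0.559 to 0.801) and with the 8 labelled arrays (adjusted p from 0.417 to 0.872). Those of hsa-miR-497-5p (0.11) and hsa-miR-19a-3p (-0.40) were also lost with 75th percentile scaling, and with normexp (0.22 and -0.08). With the replicate number as a block hsa-miR-424-5p (adjusted p = 0.0864), hsa-miR-497-5p (adjusted p = 0.0815) and hsa-miR-19a-3p (adjusted p = 0.0815) lost theirs. In SKBR3 1 of the 12 detected on every array was called, namely hsa-miR-424-5p (-0.72, adjusted p = 0.0277 over all miRNAs tested). Where the adjustment ran over the miRNAs detected on every array alone, 28 of 173 were called. With the replicate number as a block the SKBR3 call of hsa-miR-424-5p was lost, and it held under 4 of 18 alternatives. It was lost with 75th percentile scaling (-0.30), no normalization (-0.12), the brightest probe alone (-0.61, adjusted p = 0.0523), the mean over spots of the processed signal (adjusted p = 0.0504), only the SKBR3 arrays (adjusted p = 0.160), the methods' t-test (adjusted p = 0.175), the deposited log2 values (adjusted p = 0.695) and the 8 labelled arrays (0.14). hsa-miR-503-5p was read in SKBR3 on the PBS array alone (31.3), close to the lowest signals detected on the trastuzumab arrays (26.8 and 28.3), so that its SKBR3 change is set by the floor and is not given. The BT474 call of hsa-miR-424-5p was lost when any BT474 array or either SKBR3 trastuzumab array was left out (0.42 to 0.55), that of hsa-miR-19a-3p without either trastuzumab replicate of either line (-0.41 to -0.37) or with the brightest probe alone (adjusted p = 0.127), and that of hsa-miR-497-5p without BT474 PBS replicate 1 (0.24). The SKBR3 call of hsa-miR-424-5p was lost without any BT474 array or SKBR3 trastuzumab replicate 2 (-0.73 to -0.66).

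Of 7 miRNAs known to target the estrogen receptor alpha mRNA, as miR-193b does, 3 were detected. Between the lines 1 of them was called, hsa-miR-22-3p, lower in BT474 (-0.75, adjusted p = 0.00185, but 0.55 with no normalization), which is 33.3% of the 3 beside 68.5% of all miRNAs tested, with a list median of -0.29 beside 0.00. Under trastuzumab 0 of the 3 were called in either line or for the difference in response, with limma and also at an unadjusted p under 0.05, where 27.7%, 18.9% and 16.1% of all miRNAs were called with limma. The medians were -0.45 in BT474, -0.56 in SKBR3 and 0.11 for the difference, beside 0.00, -0.09 and 0.06 over all.

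Of 8 marker miRNAs of epithelial cells, 5 were called higher and 1 lower in BT474, 75% of the list beside 68.5% of all tested. All 8 on the list were detected on each BT474 array, and 4, 4 and 3 on the SKBR3 arrays, where hsa-miR-200a-3p, hsa-miR-200b-3p, hsa-miR-205-5p and hsa-miR-429 were not detected. Their summed signal was 32074, 38900.3, 36290 and 42278 on the BT474 arrays and 14522, 18054 and 13100 on the SKBR3 arrays, and the brightest was hsa-miR-141-3p throughout. The 4 not detected in SKBR3 passed the filter on low values through BT474 alone and therefore had to be higher there. Of the 3 detected on every array, hsa-miR-183-5p was higher in BT474 (1.53, adjusted p = 7.70e-05), hsa-miR-200c-3p was lower (-0.59, adjusted p = 0.000695, but 0.64 with no normalization), and hsa-miR-141-3p differed by 0.03 (adjusted p = 0.720, with -0.12 at 75th percentile scaling and 0.79 with no normalization). Under trastuzumab hsa-miR-205-5p was called in BT474 (1.11, adjusted p = 0.00439), where the trastuzumab arrays sum 2 probes and the PBS arrays 1, and with the brightest probe alone the change was 0.44 and not called (adjusted p = 0.0745). Nor was it called with normexp (0.31), the mean over spots of the processed signal (0.46), the deposited log2 values (0.55) or the 8 labelled arrays (1.08). The part of these markers in the difference of the cluster miRNAs between the lines was not tested.

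Among miRNAs that mark other cell types, those of skeletal and heart muscle were read in BT474 only, with 2 of 3 detected and a summed signal of 231 and 295 with PBS, 508 and 636 with trastuzumab, and 0 on the SKBR3 arrays, hsa-miR-1 being the brightest. hsa-miR-1 (1.01, adjusted p = 0.00566) and hsa-miR-133b (0.98, adjusted p = 0.00370) rose with trastuzumab in BT474. The call of hsa-miR-1 was lost with no normalization (1.16, adjusted p = 0.0601) and with the mean over spots of the processed signal (1.01, adjusted p = 0.0668), and both calls were lost with the 8 labelled arrays and with the deposited log2 values. Their part in the results for the cluster miRNAs was not tested. Of the 6 blood cell markers 1, hsa-miR-451a, was read on 1 array, BT474 trastuzumab replicate 2 (57.3), and of the 2 endothelial markers hsa-miR-126-3p was read on 3 BT474 arrays (68.5, 51.6 and 88.5). The 5 fibroblast and smooth muscle markers and the liver marker were not detected on any array. From the hairpin within ERBB2, hsa-miR-4728-3p was read on the BT474 PBS arrays (166 and 67.7) and hsa-miR-4728-5p on the SKBR3 arrays (44.7, 97.9 and 52.0).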

How the data were processed

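Total RNA from 8 labelled cultures was hybridized to 1-colour human miRNA arrays of miRBase release 19. Per the file headers the deposited scanner files give intensity with no normalization between arrays, and Feature Extraction set the summed signal to 0.1 where a miRNA was not detected. The authors also deposited log2 values per probe, quantile normalized separately for each cell line. The members and lists were chosen with earlier results of these data known. The summed signals of 7 distinct arrays were quantile normalized, values under 10 set to 10, and log2 taken, and limma 3.58.1 in R 4.3.3 fitted 1 mean per group with 3 residual degrees of freedom. The Benjamini-Hochberg adjusted p runs over all miRNAs above the floor on any array of the comparison, and calls need an adjusted p under 0.05. A bound sets undetected arrays at the lowest signal detected on them or at the reading of the miRNA's brightest probe, whichever is larger. Replicates were biological replicates according to the study. Their numbers were not used to pair samples, since the labels do not tie equal numbers together. Besides the cluster miRNAs, their hairpins' other miRNAs and the 3 most like each, the text names the 2 listed miRNAs with the largest rise and the 2 with the largest fall among those called, and all called where 4 or fewer. Likeness and exact permutation tests used Python 3.11.15 with scipy 1.17.1. Alternatives were 75th percentile scaling, no normalization, a floor of 1, miRNAs detected on all arrays, the 8 labelled arrays, the mean over spots of the processed signal, limma's normexp background with offset 50 on the median spot signal (the files hold no mean spot signal), a replicate block, each replicate left out, a line's own arrays, 1 treatment's arrays, the methods' t-test, the deposited log2 values, and, added after seeing the data, the brightest probe of each miRNA alone, since the summed signal holds detected probes only. The fit was tested on simulated data.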

Additional observations from a re-analysis of the deposited data

Results flagged for a closer look

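Among the miRNAs named here that were tested in both lines, 2 responded to trastuzumab unequally in the lines by the test of that difference. Of the 207 miRNAs tested in both lines, 26 passed that test (12.6%). The flagged miRNAs both lost this call with the replicate number as a block, as given in the next part. Both are on the cyclin D1 list, where they are 15.4% of the 13 tested beside 16.1% of all miRNAs. hsa-miR-424-5p changed by 0.49 in BT474 and by -0.72 in SKBR3, a difference of 1.21 (adjusted p = 0.0179, 0.00121 to 0.832 over the alternatives), and it was called under 10 of 15 alternatives, with 1 of the 5 losses given in the next part. It missed the threshold with no normalization (0.88, adjusted p = 0.404), with the 8 labelled arrays (0.36), and without BT474 PBS replicate 1 (1.12, adjusted p = 0.0554) or BT474 trastuzumab replicate 1 (1.28, adjusted p = 0.0512). hsa-miR-497-5p, the miRNA most like hsa-miR-193a-3p, changed by 0.26 in BT474 and by -0.25 in SKBR3 (adjusted p = 0.0561), a difference of 0.51 (adjusted p = 0.0222, 0.0144 to 0.873 over the alternatives). It was called under 7 of 15 alternatives, with 1 of the 8 losses given in the next part. It turned to -0.10 with 75th percentile scaling, and it missed the threshold with no normalization (0.17), with normexp (0.21), with the mean over spots of the processed signal (0.23), with the 8 labelled arrays (1.05), without SKBR3 trastuzumab replicate 1 (0.50, adjusted p = 0.0508) and with the brightest probe alone (0.39, adjusted p = 0.119), its BT474 arrays summing 2 probes and its SKBR3 arrays 1. hsa-miR-1 (adjusted p = 0.0222), hsa-miR-133b (adjusted p = 0.0119) and hsa-miR-205-5p (adjusted p = 0.0135) also passed this test, but they were not detected in SKBR3, so that the test repeats their BT474 change, and with the brightest probe alone only hsa-miR-1 still passed.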

How the results depend on the processing

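No cluster miRNA was called in either treatment comparison or for the difference in response under any alternative run with limma or the methods' t-test. Between the lines, over both treatments, every alternative that gave a value left the direction of the 4 called cluster miRNAs unchanged. For hsa-miR-193a-5p, not detected on any SKBR3 array, direction and call were fixed on the summed signal of the distinct arrays. The 4 calls were kept too, except with the 8 labelled arrays, where 0 were called (adjusted p = 0.0688). With those 8 arrays the copied BT474 array stands among the SKBR3 arrays, and 6 miRNAs were called in BT474, 6 in SKBR3, 6 between the lines and 5 for the difference. Within 1 treatment hsa-miR-193a-3p lost its call under more alternatives. The summed signal leaves out undetected probes, so that 72 of 307 miRNAs, 0 of them in the clusters, sum other probes on some arrays than on others. With the brightest probe alone, chosen after seeing the data, 80, 38, 214 and 44 miRNAs were called, and the difference of hsa-miR-193b-3p turned to -0.0066. For other alternatives the cause was not tested. The number called in BT474 (79) was 25 with no normalization, 42 with the mean over spots of the processed signal, 41 with only the line's arrays, 37 with the methods' t-test and 0 with the deposited log2 values, and 51 (without SKBR3 trastuzumab replicate 1) to 81 with a replicate left out. In SKBR3 (43) it was 28 with no normalization, 28 among miRNAs detected on all arrays, 86 with the processed signal, 15 with only the line's arrays, 12 with the methods' t-test and 0 with the deposited log2 values. Between the lines (209 of 305 tested) it was 381 of 2006 with normexp and 378 of 1292 with the processed signal. The processed signal also tested more miRNAs within the lines, 1121 in BT474 and 1106 in SKBR3, against 285 and 227. For the difference (49) it was 25 with no normalization, 23 among miRNAs detected on all arrays, and 29 (without SKBR3 trastuzumab replicate 1) to 74 (without BT474 trastuzumab replicate 2) with a replicate left out. A group left with 1 array is assumed to vary like the others, and without SKBR3 PBS replicate 2 no value can be had for SKBR3, for the difference or for the lines over both treatments.

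The replicate numbers were not used to pair samples, although within a line equal numbers share a slide column. The deviations of replicates correlated over 173 miRNAs by 0.298 between the BT474 groups, 0.148 between BT474 PBS and SKBR3 trastuzumab and 0.119 between the trastuzumab groups. With the replicate number as a block 53 miRNAs were called in BT474, 20 in SKBR3, 196 between the lines and 22 for the difference, of them 0, 0, 4 and 0 cluster miRNAs. With the block hsa-miR-424-5p (adjusted p = 0.0864), hsa-miR-497-5p (0.0815) and hsa-miR-19a-3p (0.0815) were not called in BT474, hsa-miR-424-5p (0.0962) not in SKBR3, hsa-miR-424-5p (0.0726) and hsa-miR-497-5p (0.0889) not for the difference, and hsa-miR-193a-3p not between the lines among PBS arrays alone (0.0674).

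Values that changed sign were as follows. With 75th percentile scaling the BT474 changes of hsa-miR-193a-3p, hsa-miR-193a-5p, hsa-miR-193b-3p and hsa-miR-365a-3p were -0.050, -0.17, -0.10 and -0.10, the SKBR3 changes of hsa-miR-193a-3p and hsa-miR-365a-3p 0.022 and 0.18, the line difference of hsa-miR-4725-5p 0.27, and the differences in response of hsa-miR-193a-3p, hsa-miR-193b-3p, hsa-miR-365a-3p and hsa-miR-497-5p -0.072, -0.43, -0.27 and -0.10. With no normalization the BT474 change of hsa-miR-19a-3p was 0.055, the SKBR3 changes of hsa-miR-193a-3p and hsa-miR-365a-3p 0.20 and 0.36, the line differences of hsa-miR-4725-5p, hsa-miR-424-5p, hsa-miR-34a-5p, hsa-miR-22-3p and hsa-miR-200c-3p 1.18, 0.023, 0.64, 0.55 and 0.64, and the differences in response of hsa-miR-193b-3p and hsa-miR-365a-3p -0.16 and -0.00085. The SKBR3 change of hsa-miR-193b-3p was -0.57 with 8 arrays, -0.20 with normexp, -0.019 with the processed signal and -0.25 with the deposited log2 values, that of hsa-miR-424-5p 0.14 with 8 arrays, and the line difference of hsa-miR-4725-5p 0.39 among PBS arrays alone. With a replicate left out, the SKBR3 changes ranged from -0.71 to 0.043 for hsa-miR-193a-3p and from -0.10 to 0.15 for hsa-miR-193b-3p, the difference in response of hsa-miR-193b-3p from -0.072 to 0.18, and for hsa-miR-4725-5p the BT474 change from -0.058 to 0.71 and the line difference from -0.37 to 0.032.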
